A study of Zea mays with 10 samples.

Results

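Starch genes of the maize seedling were followed through 2 days of constant light. The members are the ADP-glucose pyrophosphorylase large subunit AGPL1 (GRMZM2G391936), the starch synthases SS2 (GRMZM2G126988) and SS (GRMZM2G008263), the breakdown genes AMY3 and PHS2, and the genes that carry the symbols AGP2, wx1, ae1, su1 and bt2. They were looked up by gene identifier, probe set or symbol, and matched 15 probe sets of 12 genes among the 17621 probe sets of the Affymetrix maize array. Of these, 10 probe sets of 9 genes reached a signal of 50 on 3 or more arrays and passed the filter, as did 12512 probe sets in all. AGPL1, SS2, SS, AMY3 and PHS2 were listed by the study as cycling on these same hybridizations, so their waveforms here are not independent evidence of cycling.

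The plants were seedlings of the inbred B73, with no mutant or treated line, raised in soil under 12 h of light and 12 h of dark and moved to constant light (LL) at dawn on day 8. All aerial tissue was taken, so mesophyll and bundle sheath cells are mixed, and each array holds RNA of 3 pooled replicates of 5 seedlings. Times are zeitgeber times (ZT, hours after the transfer). There is 1 array at each of ZT0, ZT4 and ZT8, and 1 every 4 h from ZT20 to ZT44, 10 in all; those of ZT12 and ZT16 are not analysed here. Subjective night and subjective day are the hours that were dark and light before the transfer, and the last dark period ended at ZT0. The night group was ZT20, ZT40 and ZT44, and the day group was ZT4, ZT8, ZT28 and ZT32. No time point was repeated, so the standard errors (SE) and p-values measure the scatter of arrays around a fitted model and not the spread between replicates.

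Leaf starch is made inside the chloroplast. ADP-glucose pyrophosphorylase, built of large and small subunits, makes ADP-glucose, and starch synthases add its glucose to growing chains. Branching enzymes make side branches, and isoamylase-type debranching enzymes trim them so that the chains can pack into a granule. At night the granule is phosphorylated at its surface and attacked by amylases and debranching enzymes. The study also lists PHS2, a phosphorylase, under starch degradation. In maize, a C4 grass, most leaf starch is held in the bundle sheath, and the kernel endosperm stores starch with partly separate copies of the same enzymes.

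The tissue label was checked on marker genes. All 7 leaf probe sets, for PEPC, PPDK, the small subunit of Rubisco, Rubisco activase and LHCB proteins, gave deposited signals between 2773 and 14650. Of 14 probe sets for zeins, the storage proteins of endosperm, 1 (for gz27) reached a median signal of 50. The array medians ran from 187.6 to 213.5 before normalization. All further values for genes that passed are quantile-normalized signal intensities on a linear scale, each on the scale of its own probe set, and levels are not compared between probe sets. In such whole-shoot samples, fewer cells of a type and less RNA per cell cannot be told apart.

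Of the member genes, wx1 and ae1, both known mainly from the kernel, had no probe set that passed. The probe set for wx1, the granule-bound starch synthase that makes amylose in endosperm, had deposited signals of 1.24 to 3.86. Those for ae1, the endosperm branching enzyme, had medians of 17.8 and 5.89, and another gene that shares the ae1 symbol (GRMZM2G039942) had 0.361 to 4.09. A further probe set of AGPL1, whose main one passed, had 5.75 to 19.8. All of these were under 50 on all 10 arrays. Among the members that passed, su1 was at 48.6 on its dimmest array and at 50 or more on the other 9. The remaining members were at 50 or more on all 10 arrays.

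**Figure D1:**
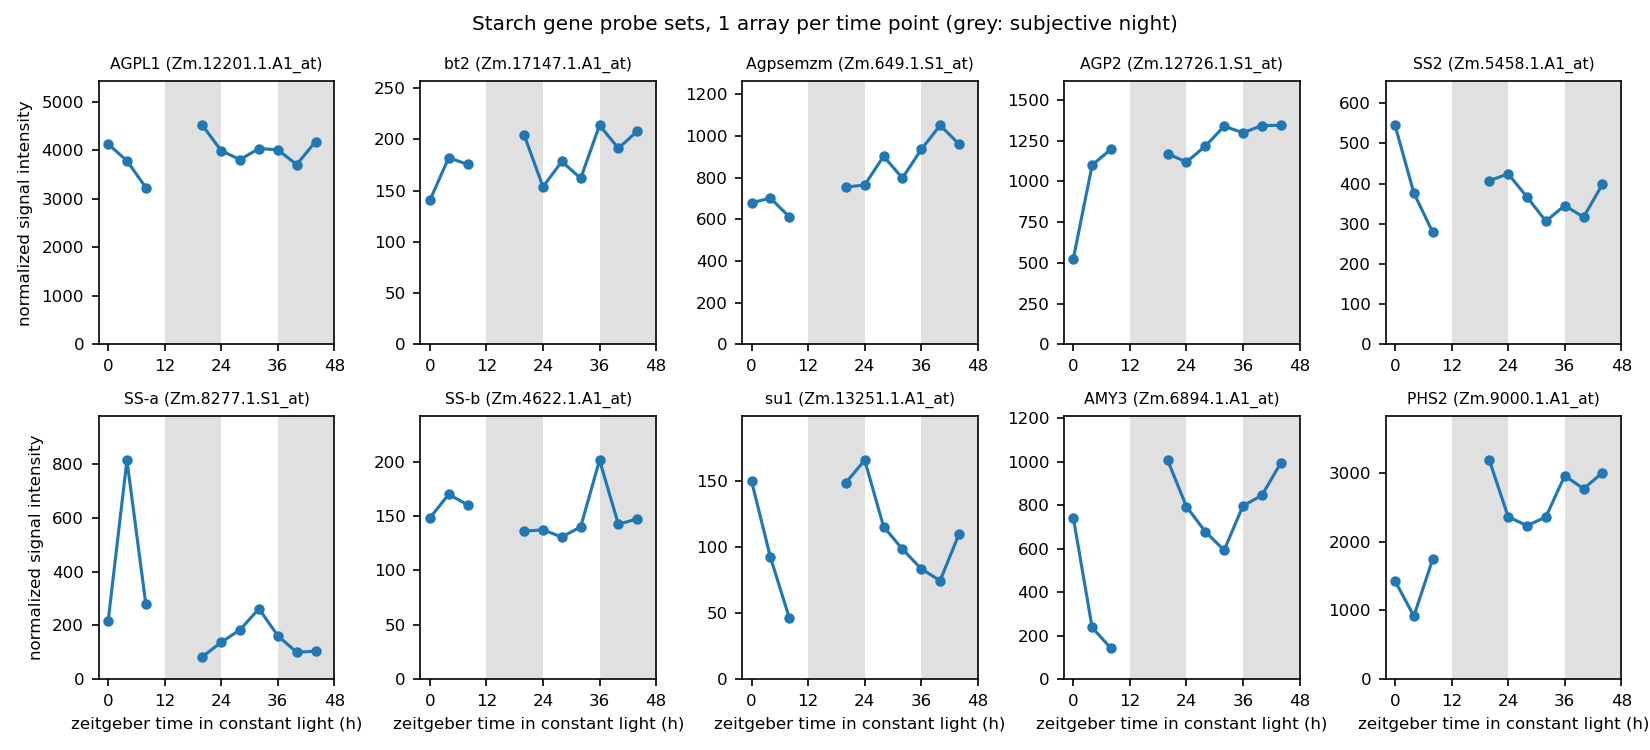
Normalized signal intensity (vertical axis, from 0) against zeitgeber time in h (horizontal axis) for the 10 starch gene probe sets that passed, with 1 point per array and grey for subjective night. AGPL1, Agpsemzm, SS2, su1 and AMY3 were lowest at ZT8, and SS-a was highest at ZT4. The lines are broken at ZT12 and ZT16, which are left out.

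AGPL1, the large subunit of ADP-glucose pyrophosphorylase, had the narrowest range of the 10 members. Its Arabidopsis counterpart is the main large subunit of leaves. It had signals of 4129, 3786 and 3233 at ZT0, ZT4 and ZT8, then 4517, 3992, 3809, 4038, 4010, 3708 and 4180 from ZT20 to ZT44. Its highest signal was 1.40 times its lowest, against 1.52 times for bt2, 1.72 times for Agpsemzm and a median of 1.49 over all probe sets. The highest and lowest arrays were ZT20 and ZT8, and the second-day arrays all lay within the range of the first-day ones.

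The small subunit gene bt2, first known from the brittle2 kernel mutant, had signals of 140.4, 182.1 and 175.7 at ZT0, ZT4 and ZT8, then 204.6, 153.7, 178.5, 162.0, 213.8, 191.4 and 208.0 from ZT20 to ZT44. It was lowest at ZT0 and ZT24 and highest at ZT36. The symbol AGP2 matched 2 genes. One, GRMZM2G106213, also called Agpsemzm, encodes a small subunit described from the embryo and had signals of 678.8, 701.9, 611.4, 754.4, 764.4, 902.6, 797.8, 935.0, 1051 and 960.9 from ZT0 to ZT44. All 5 arrays from ZT28 on were above all 5 arrays up to ZT24. The other, GRMZM2G027955, is called AGP2 here; the sources used here give it no enzyme, so its place among starch genes rests on the symbol alone. It had a signal of 523.9 at ZT0 and between 1100 and 1344 on the other 9 arrays.

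The starch synthases differed in shape from one another. SS2, annotated on the array as a starch synthase IIc precursor, had signals of 545.0, 376.3 and 278.8 at ZT0, ZT4 and ZT8, then 407.0, 424.2, 366.5, 306.4, 345.1, 316.5 and 398.3 from ZT20 to ZT44. On both days the arrays at clock hour 0 were higher than those at clock hours 4 and 8. The SS gene is granule-bound starch synthase IIa, the leaf form of the enzyme that makes amylose, and it was read by 2 probe sets that disagreed.

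The probe set called SS-a had signals of 214.6, 814.8 and 278.5 at ZT0, ZT4 and ZT8, then 83.1, 137.0, 183.5, 261.9, 161.3, 99.6 and 104.0 from ZT20 to ZT44. Its highest signal was 9.80 times its lowest, the widest range of the 10 members. It was high in subjective day on both days, at ZT4 on the first and at ZT32 on the second. The probe set called SS-b stayed between 130.7 and 201.5, with its highest signal at ZT36. The profiles of these probe sets correlated with r = 0.38 over the 10 arrays. The platform annotation gives the gene for SS-a only, and SS-b was tied to it by the annotation table of the study, so which of them reads the SS transcript better was not tested.

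The debranching gene su1, an isoamylase known from the sugary1 kernel, had signals of 150.2, 92.5 and 46.4 at ZT0, ZT4 and ZT8, then 148.9, 166.1, 115.7, 98.6, 83.6, 74.7 and 110.0 from ZT20 to ZT44. Its highest signal was 3.58 times its lowest. On both days the signal was highest around dawn and lower through the hours that followed, with the low at ZT8 on the first day and at ZT40 on the second.

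The breakdown genes were low early in the first day. AMY3, whose Arabidopsis counterpart is an alpha-amylase of the chloroplast, had signals of 742.4, 237.3 and 141.1 at ZT0, ZT4 and ZT8, then 1007, 793.5, 678.2, 592.8, 796.8, 844.9 and 993.4 from ZT20 to ZT44. The highest signal was 7.14 times the lowest. From ZT20 on the range was much narrower, with the low again at clock hour 8 and the highs at clock hour 20.

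PHS2, whose Arabidopsis counterpart is the alpha-glucan phosphorylase of the cytosol, had signals of 1427, 916.0 and 1745 at ZT0, ZT4 and ZT8, then 3183, 2359, 2230, 2357, 2956, 2767 and 3000 from ZT20 to ZT44. Its highest signal was 3.48 times its lowest. The 3 arrays of ZT0 to ZT8 were below all 7 later arrays.

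Of the 10 members, 5 had a highest signal at least 2 times their lowest (SS-a, AMY3, su1, PHS2 and AGP2), where 16.6% of all 12512 probe sets did. The median ratio of highest to lowest signal was 2.26 over the members and 1.49 over all probe sets. The members include genes that the study chose for a cycling waveform.

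Whether the levels followed a 24-h curve was asked with limma, in a model that holds a cosine term, a sine term and a straight-line change over time. The amplitude below is the fitted peak minus trough in log2, and the cosine and sine were tested together. After Benjamini-Hochberg adjustment at 0.05, 0 of 10 members and 0 of 12512 probe sets (0.0%) were called, and the lowest adjusted p over all probe sets was 0.223. At an unadjusted p of at most 0.05, 4 of 10 members stood out, where 11.1% of all probe sets did. The members include genes that the study listed as cycling on these hybridizations, so a larger share was built into their choice.

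Those 4 were su1, SS2, SS-a and AMY3. For su1 the amplitude was 1.36 (SE 0.34) with the peak at 23.7 h (SE 0.98), at an unadjusted p of 0.00487 and an adjusted p of 0.306 from limma. For SS2 it was 0.59 (SE 0.15) with the peak at 22.4 h (SE 1.24), unadjusted p 0.00624 and adjusted p 0.326 from limma. The curve fitted to SS-a had an amplitude of 1.62 (SE 0.48) and a peak at 6.5 h (SE 1.29), unadjusted p 0.0148 and adjusted p 0.358 from limma. AMY3 had an amplitude of 1.44 (SE 0.42) and a peak at 21.2 h (SE 1.61), unadjusted p 0.0184 and adjusted p 0.367 from limma. In this fit the peaks of su1, SS2 and AMY3 fell in the last hours before subjective dawn, and that of SS-a in mid subjective day. The AMY3 peak depended on the setting and lay between 18.8 h and 22.8 h over the alternatives. It was at 18.8 h without the straight-line change and at 19.5 h without ZT8. On the arrays from ZT24 on, the peaks were at 18.8 h for AMY3, 1.1 h for su1, 23.1 h for SS2 and 6.9 h for SS-a.

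For the other 6 members the amplitudes were between 0.07 (Agpsemzm, SE 0.11) and 0.54 (PHS2, SE 0.33), with unadjusted p between 0.146 for AGPL1 and 0.811 for Agpsemzm. The median amplitude was 0.46 over the 10 members, which include genes chosen by the study as cycling, and 0.23 over all probe sets. With the 6 arrays of the second day alone and no straight line, AMY3 had an amplitude of 0.63 (SE 0.12, unadjusted p 0.00266, adjusted p 0.200 from limma). That was less than its 10-array value by more than 1.5 times. In the same fit SS-a had 1.32 (SE 0.18, adjusted p 0.060 from limma) and su1 had 0.97 (SE 0.21). PHS2 had 0.41 there (SE 0.11, unadjusted p 0.0137, adjusted p 0.341 from limma). Without the linear change on all 10 arrays, PHS2 had an amplitude of 1.16 and an unadjusted p of 0.022. The unadjusted p was over 0.05 without ZT20 for SS-a (0.0939) and AMY3 (0.0556), and for AMY3 also without ZT8 (0.0529, with an amplitude of 0.99) and with robust variances (0.0538). Without ZT8 the amplitude was 0.93 for su1 and 0.43 for SS2. With a period of 20 h in place of 24 h, 1 member had an unadjusted p of at most 0.05, with su1 at an amplitude of 0.69 (p 0.347), SS-a at 1.06 (p 0.206) and SS2 at 0.46 (p 0.103), all from limma. With 22 h there were 2, with su1 at p 0.0714 and SS-a at p 0.0528.

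A cosine scan patterned on COSOPT, over periods of 20 to 28 h, selected 2 members, su1 and AMY3, where it selected 8.78% of all probe sets. Matching of cosine, spike and box shapes patterned on HAYSTACK selected 3, su1, AMY3 and PHS2, where it selected 5.47%. Both were run on linear signals, where the limma curve was fitted to log2 values. SS-a was selected by neither. Its permutation p in the cosine scan was 0.624, and its best model correlation was 0.697 against a required 0.7. SS2, at a correlation of 0.886, did not reach the required 2-fold range. AMY3 and PHS2, which were selected, are among the genes that the study listed as cycling on these hybridizations.

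**Figure D2:**
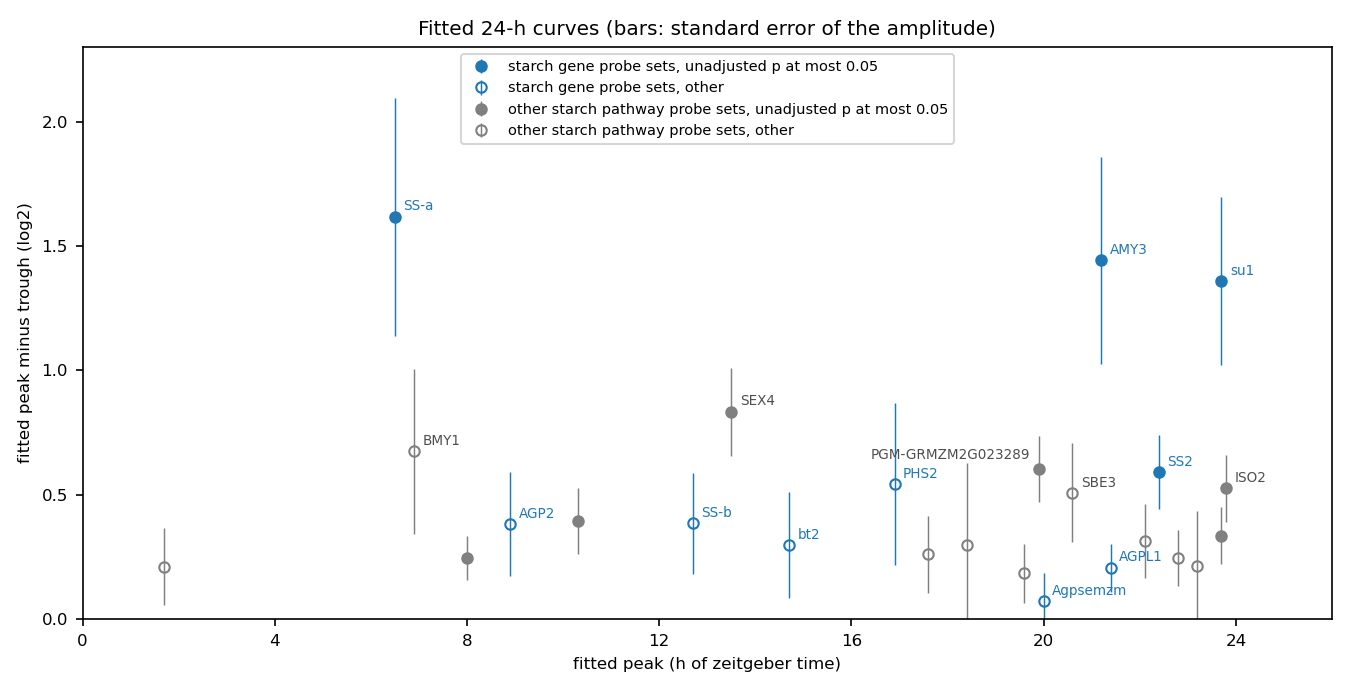
Fitted peak minus trough in log2 (vertical axis, bars are 1 SE) against the fitted peak in h of zeitgeber time (horizontal axis) for the 10 starch gene probe sets (blue) and 15 other starch pathway probe sets (grey). Filled points have an unadjusted p of at most 0.05, and SS-a at 6.5 h, AMY3 at 21.2 h and su1 at 23.7 h have the highest amplitudes.

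Levels in subjective night were then set against those in subjective day. After adjustment, limma called 0 of 10 members and 0 of 12512 probe sets (0.0% higher and 0.0% lower), with a lowest adjusted p of 0.243. At an unadjusted p of at most 0.05, AMY3 and PHS2 were higher in subjective night, 2 of 10 where 5.79% of all probe sets were, and SS-a was lower, 1 of 10 where 5.66% were. AMY3, PHS2 and the gene of SS-a are among those the study listed as cycling on these hybridizations. The groups did not overlap for 3 members with night higher, AMY3, PHS2 and bt2 (6.43% of all probe sets), and for 1 with night lower, SS-a (5.84%). When a linear change over time was added, as in the 24-h model, SS-a alone kept an unadjusted p of at most 0.05, with a difference of -1.32 (p 0.0255), while AMY3 was at 0.76 (p 0.141) and PHS2 at 0.43 (p 0.18), all from limma.

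AMY3 had signals of 1007, 844.9 and 993.4 in subjective night (ZT20, ZT40, ZT44), against 237.3, 141.1, 678.2 and 592.8 in subjective day (ZT4, ZT8, ZT28, ZT32). The lowest night array was above the highest day array, and the first-day pair ZT4 and ZT8 was far below the second-day pair. The difference was 1.47 in log2 (SE 0.49, unadjusted p 0.0159, adjusted p 0.405 from limma), or 2.78-fold. On second-day arrays alone, a setting added after the values were seen, it was 0.53 (SE 0.12, unadjusted p 0.00278, adjusted p 0.502 from limma).

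PHS2 had signals of 3183, 2767 and 3000 in subjective night, against 916.0, 1745, 2230 and 2357 in subjective day. The difference was 0.81 in log2 (SE 0.29, unadjusted p 0.0219, adjusted p 0.41 from limma), or 1.75-fold, and on second-day arrays alone it was 0.31 (SE 0.08, unadjusted p 0.00523). Without ZT4 it was 0.50 (unadjusted p 0.00337), and without ZT20 or ZT44 the unadjusted p was 0.0637 or 0.0532. As for AMY3, the value on second-day arrays was smaller by more than 1.5 times but had the same sign.

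SS-a had signals of 83.1, 99.6 and 104.0 in subjective night, against 814.8, 278.5, 183.5 and 261.9 in subjective day. The 3 night arrays were the 3 lowest of all 10 arrays, and ZT4 stood above the other day arrays. The difference was -1.76 in log2 (SE 0.43, unadjusted p 0.00282, adjusted p 0.385 from limma), a signal 3.40 times higher in subjective day, and on second-day arrays alone it was -1.11 (SE 0.18, unadjusted p 0.000449, adjusted p 0.331 from limma). The other probe set of the gene, SS-b, had 136.1, 142.4 and 147.5 in subjective night, within the 130.7 to 170.0 of subjective day, and a difference of -0.07 (SE 0.12).

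The value for bt2 was small, with 204.6, 191.4 and 208.0 in subjective night against 182.1, 175.7, 178.5 and 162.0 in subjective day, a difference of 0.21 (SE 0.09, unadjusted p 0.0505). For AGPL1, Agpsemzm, AGP2, SS2 and su1 the night and day arrays overlapped and the differences were between 0.08 and 0.35, with unadjusted p of 0.0965 or more. For su1 and SS2, whose fitted peaks lie near the boundary between the groups, the comparison splits the hours around the peak. The median difference was 0.19 over the 10 members and 0.01 over all probe sets.

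**Figure D3:**
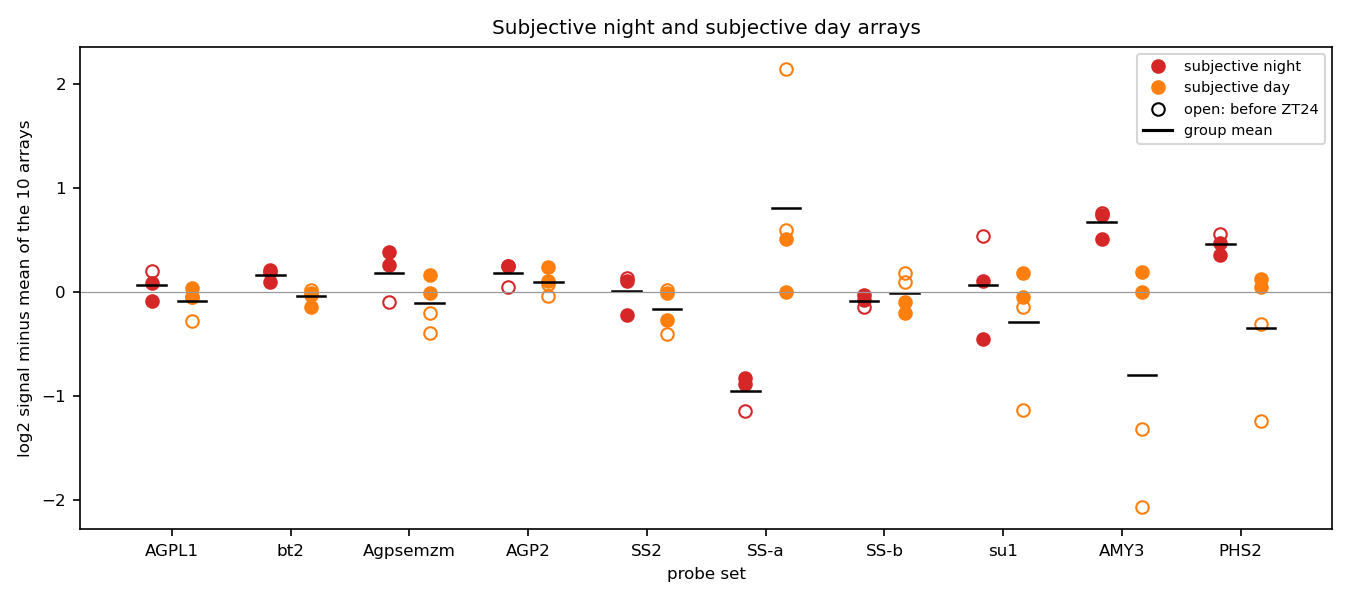
Log2 signal of each array minus the mean of the 10 arrays (vertical axis) for each member (horizontal axis), with subjective night in red to the left of subjective day in orange, open points for arrays before ZT24 and a bar at each group mean. The night points lie above all day points for AMY3, PHS2 and bt2 and below them for SS-a.

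The same clock hours were compared between the second and first day of constant light (ZT24, ZT28, ZT32 and ZT44 against ZT0, ZT4, ZT8 and ZT20), with clock hour as a block. Limma called 0 of 10 members and 0 of 12512 probe sets (0.0%) after adjustment, and the lowest adjusted p was 0.0652. At an unadjusted p of at most 0.05, 4 of 10 members were higher on the second day, AMY3, PHS2, AGP2 and Agpsemzm, where 9.55% of all probe sets were, and none was lower, where 9.98% were. The members higher in all 4 matched pairs were AGP2 and Agpsemzm, 2 of 10, where 13.2% of all probe sets were.

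In AMY3 the days differed at clock hours 4 and 8 and hardly at the others. The second-day signal was 2.86 times the first-day one at ZT28 over ZT4 and 4.20 times at ZT32 over ZT8, but 1.07 times at ZT24 over ZT0 and 0.99 times at ZT44 over ZT20. The mean difference was 0.92 in log2 (SE 0.34, unadjusted p 0.0312, adjusted p 0.212 from limma). Without ZT32 or ZT8, and so without their pair, it was 0.53, with an unadjusted p of 0.12, and without ZT28 or ZT4 it was 0.72, with an unadjusted p of 0.118. With robust variances the unadjusted p was 0.0971.

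In PHS2 the ratios were 1.65 at ZT24 over ZT0, 2.43 at ZT28 over ZT4, 1.35 at ZT32 over ZT8 and 0.94 at ZT44 over ZT20. The mean difference was 0.59 (SE 0.20, unadjusted p 0.0188, adjusted p 0.183 from limma), and without ZT28 or ZT4 it was 0.36, with an unadjusted p of 0.0644. Without ZT0 the unadjusted p was 0.0568. In both breakdown genes the ratios at clock hours 4 and 8 were above that at clock hour 20, which was close to 1.

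Agpsemzm had the most even values, with second-day signals of 764.4, 902.6, 797.8 and 960.9 against first-day signals of 678.8, 701.9, 611.4 and 754.4. The second-day range lay above the first-day range, with ratios of 1.13 to 1.31. The difference was 0.32 (SE 0.08, unadjusted p 0.0052, adjusted p 0.137 from limma). AGP2 differed by 0.40 (SE 0.17, unadjusted p 0.0452, adjusted p 0.246 from limma), which rested on ZT0: the ratio at ZT24 over ZT0 was 2.14, those of the other pairs were 1.11 to 1.15, and without ZT0 the difference was 0.17, with an unadjusted p of 0.0965. Without ZT20 or ZT44, or with median centring, the unadjusted p was between 0.0613 and 0.0636.

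The 6 members left had differences between -0.64 (SS-a, SE 0.36) and 0.28 (su1, SE 0.23), with unadjusted p of 0.116 or more. For SS-a the pair at clock hour 4 set the value, with a ratio of 0.23 at ZT28 over ZT4 against 0.64, 0.94 and 1.25 in the other pairs. For su1 the pair at clock hour 8 did, with 2.12 at ZT32 over ZT8 against 1.11, 1.25 and 0.74. In AGPL1, SS2 and bt2 the sign of the difference changed with the scaling or with the arrays used.

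**Figure D4:**
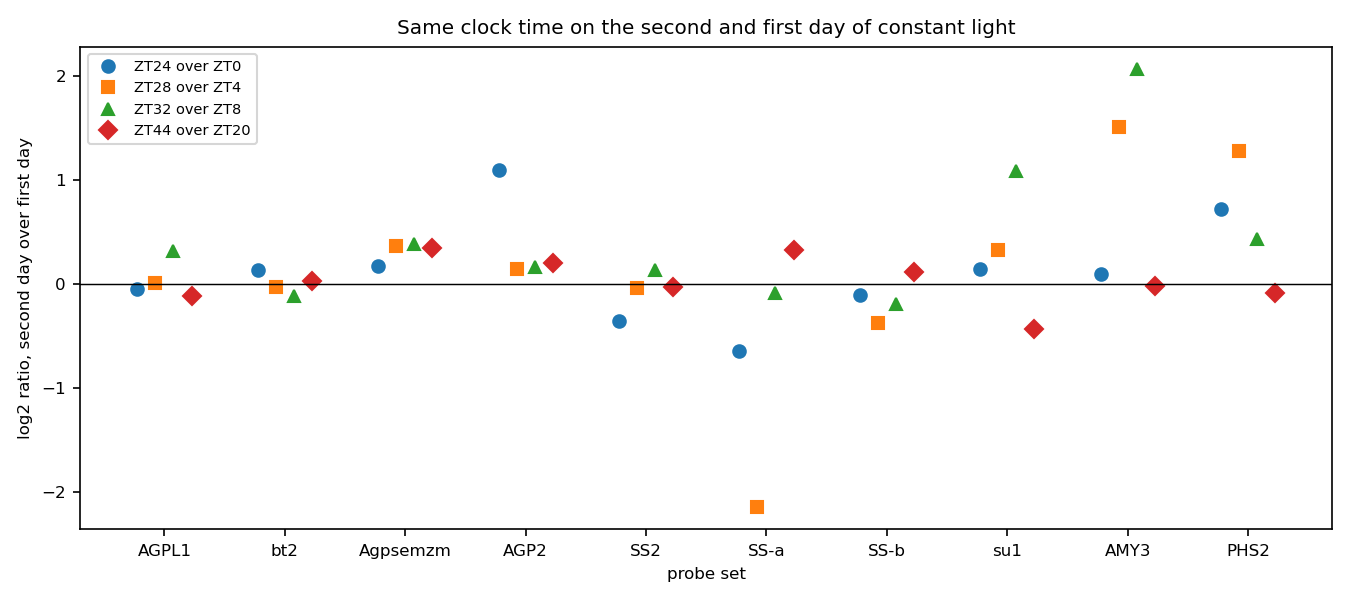
Log2 ratio of the second-day signal over the first-day signal at the same clock hour (vertical axis) for each member (horizontal axis), with 1 symbol for each of the 4 pairs. AMY3 and PHS2 have their highest ratios at clock hours 8 and 4 and lie near 0 for ZT44 over ZT20, AGP2 stands out at ZT24 over ZT0, and all 4 ratios of Agpsemzm are above 0.

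Single arrays were set against the 24-h curve by adding a term for 1 array at a time. AGP2 at ZT0 was the only member called after adjustment, at -0.997 in log2 (SE 0.12, adjusted p 0.00713 from limma). Its place among the starch genes rests on the symbol alone. On that array, the one taken at the transfer to LL, 98 of 12512 probe sets (0.783%) were called. SS-a at ZT4 was 1.63 above its curve (SE 0.27, unadjusted p 0.000175, adjusted p 0.253 from limma), where 0.016% of all probe sets were called. Without ZT0 the value was 1.90, with an adjusted p of 0.00969 from limma, where 48 probe sets (0.385%) were called on that array. PHS2 at ZT4 was at -0.82 (SE 0.23, adjusted p 0.63 from limma).

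The low AMY3 signals at ZT4 and ZT8 were not called with both arrays in the fit, at -0.63 (SE 0.57) and -1.44 (SE 0.49). With ZT4 left out, ZT8 was at -2.08 (adjusted p 0.0148 from limma; 0.0321% of all probe sets were called), and with ZT8 left out, ZT4 was at -1.40 (adjusted p 0.0215 from limma; 0.0803% were called). The adjustment was over the probe sets of each fit and not over the arrays tested or left out. With 1 array at each hour, a time point and its array cannot be told apart.

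The rest of the starch pathway was read from a list drawn up by annotation, of 22 further probe sets. Of these, 15 passed the filter, and the entries for zSSIIa and zSSIIb were added after their values were seen. After adjustment none of the 15 was called in the 24-h curve, in night against day or between the days. At an unadjusted p of at most 0.05, 6 of 15 stood out in the 24-h curve (11.1% of all probe sets), 5 were higher in subjective night (5.79%) and 1 was lower (5.66%). The median amplitude was 0.31 over the 15, against 0.23 over all probe sets, and 5 of 15 had at least a 2-fold range (16.6%).

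In the 24-h curve, SEX4, which removes phosphate from starch in Arabidopsis, had an amplitude of 0.83 (SE 0.18) and a peak at 13.5 h, with signals between 389.2 at ZT0 and 976.0 at ZT36 (unadjusted p 0.0022, limma). A phosphoglucomutase (GRMZM2G023289), an enzyme that supplies glucose 1-phosphate, had 0.60 (SE 0.13) and a peak at 19.9 h. ISO2, an isoamylase-type partner of the su1 enzyme, had 0.53 (SE 0.13) and a peak at 23.8 h, close to the 23.7 h of su1. Starch synthase SS1 had 0.39 (SE 0.13) with a peak at 10.3 h, GWD3, which phosphorylates glucan chains in Arabidopsis, had 0.34 (SE 0.11) with a peak at 23.7 h, and another phosphoglucomutase (GRMZM2G069676) had 0.25 (SE 0.09) with a peak at 8.0 h.

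Between night and day, the branching enzyme SBE3 had signals of 2443, 1962 and 2339 in subjective night, against 963.0, 1040, 1876 and 1423 in subjective day, a difference of 0.81 (SE 0.22, unadjusted p 0.00507, adjusted p 0.393 from limma). PHO-L, the phosphorylase L isozyme, had 1152, 932.7 and 983.7 against 359.5, 572.1, 833.7 and 769.7, a difference of 0.76 (SE 0.26, unadjusted p 0.0187). In both, the first-day arrays of ZT0, ZT4 and ZT8 were the 3 lowest of the 10, as they were in PHS2. In the 24-h model the linear change was 0.63 log2 per day (SE 0.16) for SBE3 and 0.69 (SE 0.22) for PHO-L. Their amplitudes there were 0.51 (unadjusted p 0.0802) and 0.30 (unadjusted p 0.637), from limma. Night against day with a linear change added was not examined for SBE3 and PHO-L. Between the second and first day these were also the 2 of 15 at an unadjusted p of at most 0.05, both higher on the second day, SBE3 by 0.58 (SE 0.17, unadjusted p 0.0116) and PHO-L by 0.66 (SE 0.24, unadjusted p 0.0264), where 9.55% of all probe sets were. The profile of PHS2 correlated with those of PHO-L (r = 0.93) and SBE3 (r = 0.90) over the 10 arrays, and all of these values come from the same arrays.

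SEX4, the branching enzyme sbe1 and the phosphoglucomutase GRMZM2G023289 differed by 0.39 (SE 0.14), 0.28 (SE 0.12) and 0.32 (SE 0.14), at unadjusted p of 0.0238, 0.0472 and 0.0489. BMY1, a beta-amylase, was the one with lower signals in subjective night, 527.6, 648.4 and 435.7 against 1132, 827.3, 685.7 and 635.4 in subjective day, a difference of -0.59 (SE 0.21, unadjusted p 0.0202, adjusted p 0.409 from limma). The night range reached into the day range. Of the amylases that passed the filter, AMY3 and BMY1 differed in sign, with higher signals in subjective night for AMY3 and in subjective day for BMY1. Neither difference was called after adjustment. BMY3, also on the list, had deposited signals of 0.632 to 175.7, did not pass the filter and was not tested.

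**Figure D5:**
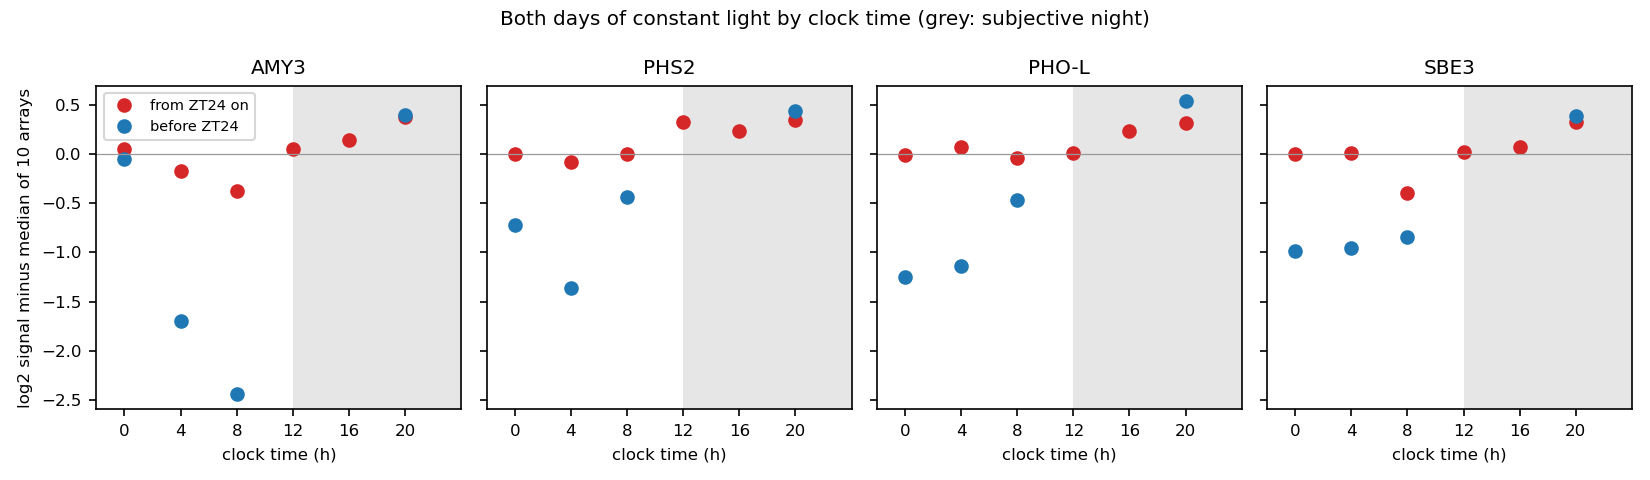
Log2 signal minus the median of the 10 arrays (vertical axis) against clock time in h (horizontal axis) for AMY3, PHS2, PHO-L and SBE3, with arrays from ZT24 on in red and earlier ones in blue. Both days lie close together at clock hour 20, while the first-day arrays at clock hours 4 and 8 lie below the second-day arrays in all 4 genes.

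Some endosperm forms outside the member list were also dim, whereas the members bt2 and su1, both first known from the kernel, passed the filter. Deposited signals were 1.26 to 26.8 for the sh2 probe sets (the large subunit of the endosperm), 2.81 to 19.5 for bt1 (the ADP-glucose transporter of the endosperm plastid), 1.40 to 22.4 for du1 (a starch synthase) and 1.21 to 8.96 for zSSIIa. None of these passed the filter. The leaf small subunit agpsl1 passed, with normalized signals between 2647 and 3388 and an amplitude of 0.21 (SE 0.15), and its highest signal was 1.28 times its lowest.

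Among the members themselves, su1 and SS2 had the most alike profiles (r = 0.83 over 10 arrays), followed by su1 and AGPL1 (r = 0.82) and AMY3 and AGPL1 (r = 0.80). SS-a ran opposite to PHS2 (r = -0.90) and AMY3 (r = -0.77). These correlations share the 10 arrays and the linear change over the course. AGPL1, SS2, AMY3 and su1 were all lowest at ZT8, and the correlations without that array were not computed.

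For the 3 members with the widest range, the named probe sets most like them over the 10 arrays were looked up across all that passed. Those nearest to AMY3 were matched to a heat shock factor (AT-HSFC1, r = 0.981), a nicotinate phosphoribosyltransferase (NAPRT2, r = 0.976) and cax1 (r = 0.972). Those nearest to su1 were matched to a beta-fructofuranosidase (r = 0.978), GWD3 (r = 0.964) and a RabGAP/TBC domain protein (r = 0.962). Those nearest to SS-a were matched to a dentin sialophosphoprotein-related protein (r = 0.952), AILP1 (r = 0.924) and a ribosomal protein S15A (r = 0.899). GWD3 is thus the one starch pathway gene among these 9. Its signals were between 678.6 at ZT8 and 935.0 at ZT24, a ratio of 1.38, so it shared the shape of su1 with a much narrower range. Both GWD3 and su1 were lowest at ZT8, and their likeness without that array was not tested.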

How the data were processed

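Transcript levels were read with Affymetrix maize arrays from B73 seedlings in constant light, 1 array at each of 10 time points. The values deposited by the authors are signal intensity values on a linear scale, 1 per probe set, for which the submitters' processing notes name MAS5 without a version; the paper describes RMAExpress values of the same hybridizations, which were not used here. Samples were assigned to time points from their labels.

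After 113 control probe sets were left out, intensities under 1 were set to 1 (2968 values), log2 was taken and arrays were quantile normalized. The filter kept probe sets that reached a deposited signal of 50 on 3 or more arrays. Models were fitted in R 4.3.3 by limma 3.58.1 (lmFit, eBayes with an intensity trend), with Benjamini-Hochberg adjustment over all 12512 probe sets at 0.05. Residual degrees of freedom were 6 for the 24-h curve, 5 for night against day, 3 for the second against the first day and 5 for single arrays. The limma models were tested on simulated data, and the cosine scan and shape matching were not. The number of arrays and signal over background limit the precision.

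The main test differs from the COSOPT and HAYSTACK steps of the study, which were run as patterned alternatives (101 periods and 1000 permutations for the cosine scan; 24 phases and a correlation of 0.7 for shape matching, where spikes and boxes extend 6 h to each side) with Python 3.11.15 and numpy 2.4.6. Other alternatives were deposited values without normalization, median centring, a filter of 100 or none, robust variances, a pseudocount of 32, each array left out, other periods, other handling of the linear change, and other choices of arrays. All members are named; other pathway genes are named where the unadjusted p was at most 0.05 in the 24-h curve or the night against day comparison, and the few added to that describe forms with low signals or a narrow range and were picked after their values were seen. For the 3 members with the widest range, the 3 most correlated named probe sets are given.

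The members, lists, rules and tests were chosen with earlier results of these data known. Gene identities came from the platform annotation (1453 probe sets with a gene, 1377 of them matched to RefSeq gene names of Zm-B73-REFERENCE-NAM-5.0) and from the annotation tables of the study; no value of those tables was used. No coordinates are given because the probe sets carry no genome build.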

Additional observations from a re-analysis of the deposited data

How the results depend on the processing

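Without a repeat of any time point, each call rests on single arrays, and 10 arrays limit the precision. No paired analysis was possible because each time point has 1 array, labelled as replicate 1, so replicate numbers pair no arrays; the matching of clock hours between the days is part of that comparison. In the 24-h curve, members called after adjustment numbered 0, but 2 under the cosine scan and 3 under shape matching, which use unadjusted criteria. Over all probe sets the calls numbered 45 on the arrays from ZT24 on, 1 with an offset between the days, 1098 under the cosine scan and 685 under shape matching, and 0 under each other alternative. Between night and day, calls numbered 0 under every alternative. Between the days, 0 members were called under any alternative, while over all probe sets there were 11 calls on deposited values, 1 with median centring, 12 with robust variances, and 0 to 339 with single arrays left out. For single arrays, 1 to 2 members were called with an array left out (0.0321% to 0.385% of all probe sets in the fits that added AMY3 or SS-a); AGP2 at ZT0 was called under all 16 alternatives that could test it. SS-a at ZT4 was also called without ZT0.

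Signs turned only for differences that had an unadjusted p over 0.05 from limma in the main fit. Between the days, these were AGPL1 (0.0423; -0.0364 on deposited values, -0.0872 with median centring, and -0.0509 to 0.0953 with single arrays left out), SS2 (-0.0736; 0.0223 without ZT0 and ZT24, and -0.144 to 0.0225 with single arrays left out) and bt2 (0.0021; -0.0406 without ZT0 and ZT24, -0.00645 with median centring, and -0.0408 to 0.0423 with single arrays left out). Between night and day, they were AGP2 (-0.0438 with a linear change), AGPL1 (-0.0156 with median centring), SS2 (-0.0349 with the boundary arrays), SS-b (0.0739 with the boundary arrays, 0.0231 with a linear change and 0.0998 on second-day arrays alone) and su1 (-0.0401 with the boundary arrays and -0.239 on second-day arrays alone). Of all these, su1 between night and day had the largest main value, 0.35 (SE 0.34). The causes were not tested. AMY3, PHS2 and SS-a kept their signs in both comparisons, but with a linear change added the night against day values of AMY3 (0.757) and PHS2 (0.432) were smaller by more than 1.5 times, and members at an unadjusted p of at most 0.05 numbered 1 instead of 3 (5 with the boundary arrays). In the 24-h curve that number was 4, but 1 at a period of 20 h, 2 at 22 h and 2 without ZT20.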
